A study of Mus musculus with 10 samples.

Results

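Tetraspanins are small membrane proteins that cross the membrane several times and gather integrins, immunoglobulin-family proteins and signalling enzymes into patches of the cell surface. Some are made by many cell types, and others, such as Cd37 and Cd53, almost only by leukocytes. In skeletal muscle they are known from myoblast fusion, which Cd9 and Cd81 restrain in regenerating mouse muscle, and from the integrins that hold cells to laminin. Cd63 sits mainly in late endosomes, lysosomes and the vesicles released from them.

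The 10 tetraspanin genes followed here were Cd37 and Cd53 of leukocytes, Cd9, Cd63, Cd81, Cd82, Cd151 and Tspan4 of many cell types, and Tspan7 and Tspan8, which are best known from nerve and from epithelia. They were chosen by name, and a probe set counted where the platform annotation gave that gene alone. By this rule 9 of the 10 genes had 14 probe sets among 12422 probe sets that were not controls, and Tspan7 was not analysed here. Cd37, Cd81, Cd151 and Tspan4 lie on chromosome 7, where 1 protein-coding gene, Polr2l, separates Cd151 from Tspan4.

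Gastrocnemius, the large calf muscle, was taken from male mdx mice of 16 weeks, whose dystrophin gene Dmd carries a mutation that stops translation, and from normal male mice of the same age. Each group had 5 arrays of whole-muscle total RNA. The strain of the normal mice and the number of animals behind the arrays were not stated in the labels, so the p-values rest on sample-to-sample spread that could be partly technical.

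Dmd itself averaged 188 ± 33.7 in mdx muscle and 797 ± 147 in control muscle (SD, n = 5 each; adjusted p = 6.17e-06 by limma). Muscle fibre markers were bright in both groups, with a summed intensity of 141867 to 208808 in mdx and 176346 to 290472 in control. Values are linear probe set intensities as deposited, and how they were scaled was not given. Values below 157, the noise level of these arrays, are not distinguished from 0. Log2 changes are mdx minus control of log2(intensity + 157), which understates the change of dim genes. The number of arrays limits the precision.

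Of the 14 probe sets, 12 were bright enough to be tested and covered all 9 genes. At a limma adjusted p below 0.05, 5 of the 12 were higher in mdx, 1 was lower and 6 did not pass. Of all 7612 probe sets tested, 33.1% passed, 15.6% higher and 17.5% lower, so rises were 47.3% of all calls, or 96.6% when arrays were scaled to the hybridization controls. The median log2 change was 0.26 over the 12 and -0.05 over all tested. Cd53 reached the tested set through its mdx arrays alone, so this count and this median are descriptions. The genes that rose were Cd53, Cd63, Cd82, Cd9 and Cd37, and Tspan8 fell. No probe set of Cd81, Cd151 or Tspan4 passed.

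**Figure D1:**
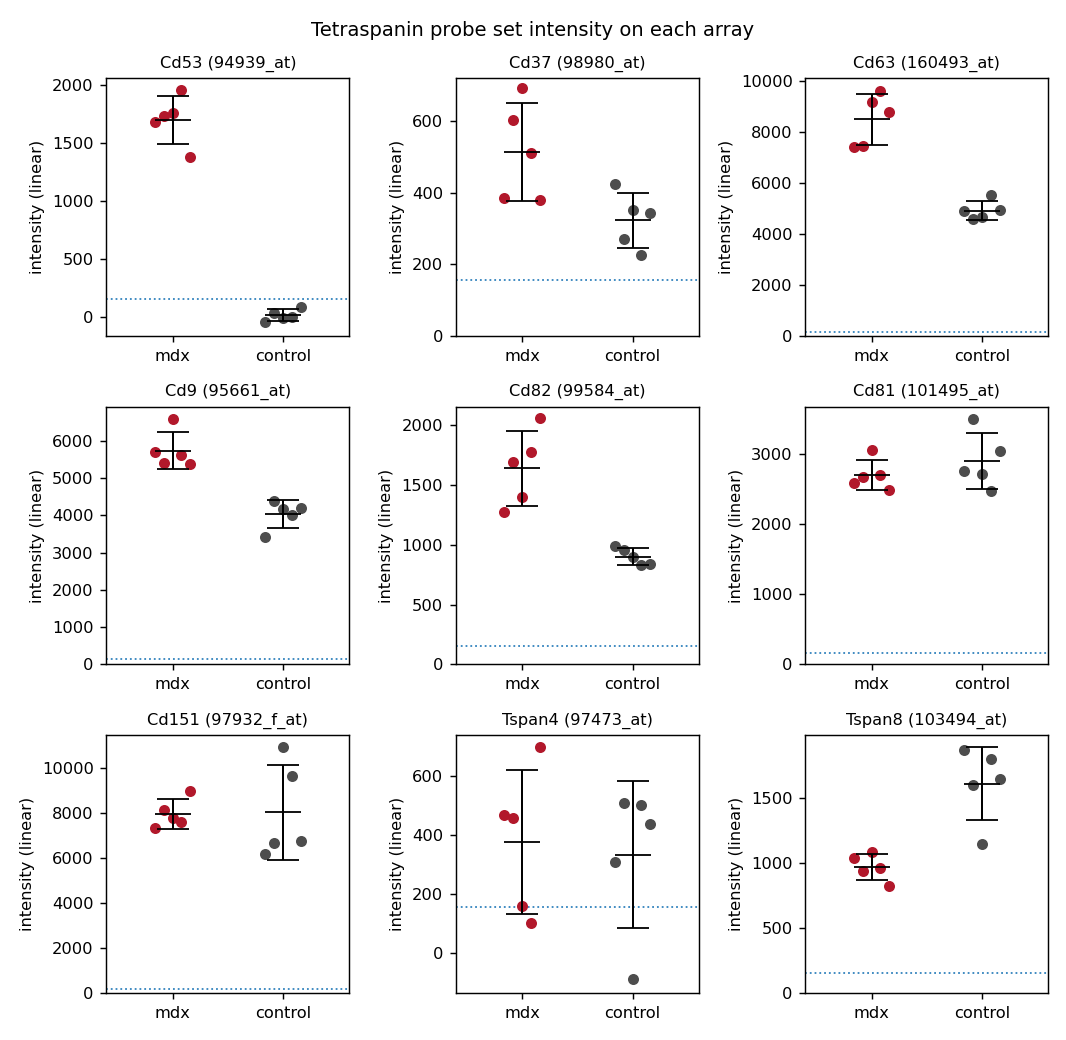
Intensity on a linear scale of the brightest probe set of each of the 9 tetraspanin genes, with mdx left of control. Points are arrays, bars are the mean and SD of 5, and the dotted line is the noise level of 157. The 5 mdx arrays lie above all control arrays for Cd53, Cd63, Cd9 and Cd82 and below them for Tspan8, and the groups overlap for the other genes.

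The leukocyte tetraspanin Cd53, a surface protein of nearly all white blood cells, had the largest fitted change of the members. Its probe set read 1677, 1730, 1758, 1957 and 1379 on the mdx arrays, against -44.1, 37.8, -5.1, -1.0 and 89.6 on the control arrays. Every control array lay below the noise level and every mdx array far above it, with no overlap. Groups did not overlap for 25.1% of all tested probe sets, 12.3% with mdx higher and 12.7% with mdx lower. Cd53 was at least 10.8-fold higher in mdx, with a log2 change of 3.37 (SE 0.16, adjusted p = 2.22e-08 by limma). The size of that fitted change depends on the 157 added before the logarithm, and was 2.62 with 300 added and 4.66 with 50. Cd53 passed the filter on dim probe sets through its mdx arrays alone, with 5 mdx and 0 control arrays above it. Its p-value and its lack of overlap are therefore descriptions.

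The other leukocyte member, Cd37, an organizer of signalling on B cells and other immune cells, was above noise in both groups. It read 385, 604, 693, 512 and 379 in mdx, against 424, 270, 352, 226 and 344 in control. Only 3 of the 5 mdx arrays stood above the highest control array, so the groups overlap. The mean was 515 ± 137 in mdx and 323 ± 76.8 in control (SD, n = 5 each), a log2 change of 0.48 (95% interval 0.11 to 0.84, adjusted p = 0.0478 by limma). This call was lost in 11 of 21 alternatives, among them quantile normalization (0.39, adjusted p = 0.0869), no filter on dim probe sets (adjusted p = 0.0831) and leaving out mdx replicate 2, 3 or 4 or control replicate 2, 3, 4 or 5 (adjusted p from 0.0613 to 0.117). A difference between Cd37 and Cd53 was not tested.

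Markers of leukocytes were among the genes that rose. Of 12 markers of leukocytes in general, 11 were tested, 8 rose and 0 fell, and their summed intensity was 15674 to 18614 in mdx and 3562 to 4888 in control. Among genes represented by their brightest probe set, 15.9% were called higher and 18.4% lower. The myeloid adaptor Tyrobp and the leukocyte surface protein Cd52 rose by 3.79 and 2.73 on the log2 scale and the integrin chain Itgb2 by 1.87, and Cd48 was at least 2.67-fold higher. Cd48 and Ptprc passed the filter on dim probe sets through their mdx arrays alone, and of the other 9 tested 6 rose and 0 fell. Coro1a was below noise on all 10 arrays, with averages of -942 in mdx and -2454 in control. Its probe set cannot show whether the transcript was present. All 10 macrophage markers tested rose, with a sum of 50650 to 70451 in mdx and 4761 to 8515 in control. Their named members Ctss, Lyz2, Mpeg1 and C1qa rose by 3.92, 3.58, 2.94 and 2.66.

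No lymphocyte marker tested was called higher with the deposited scaling. Few were tested, and 15.9% of all genes tested were called higher and 18.4% lower. These counts therefore do not set lymphocyte markers apart from other genes. Of 6 B cell markers, 5 were tested, 0 rose and 1 fell, the B cell surface protein Ms4a1, at -0.58 (adjusted p = 0.00642 by limma), while scaling to the hybridization controls called 1 higher and 0 lower. The B cell sum was 1978 to 2515 in mdx and 2514 to 3665 in control, and Cd22 was below noise on every array. Of 8 T and NK cell markers, 1 was tested and did not pass with the deposited scaling but was called higher under scaling to the hybridization controls, and Cd3d, Cd3e, Cd3g, Cd8a, Cd2 and Cd5 were below noise on every array. Averages in mdx and control were -692 and -847 for Cd3e, and -377 and -318 for Cd22. Probe sets this far below 0 cannot show whether the transcript was present. The T and NK cell sum was 361 to 753 in mdx and 441 to 747 in control. In whole muscle, more cells of a type and more transcript per cell cannot be told apart.

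**Figure D2:**
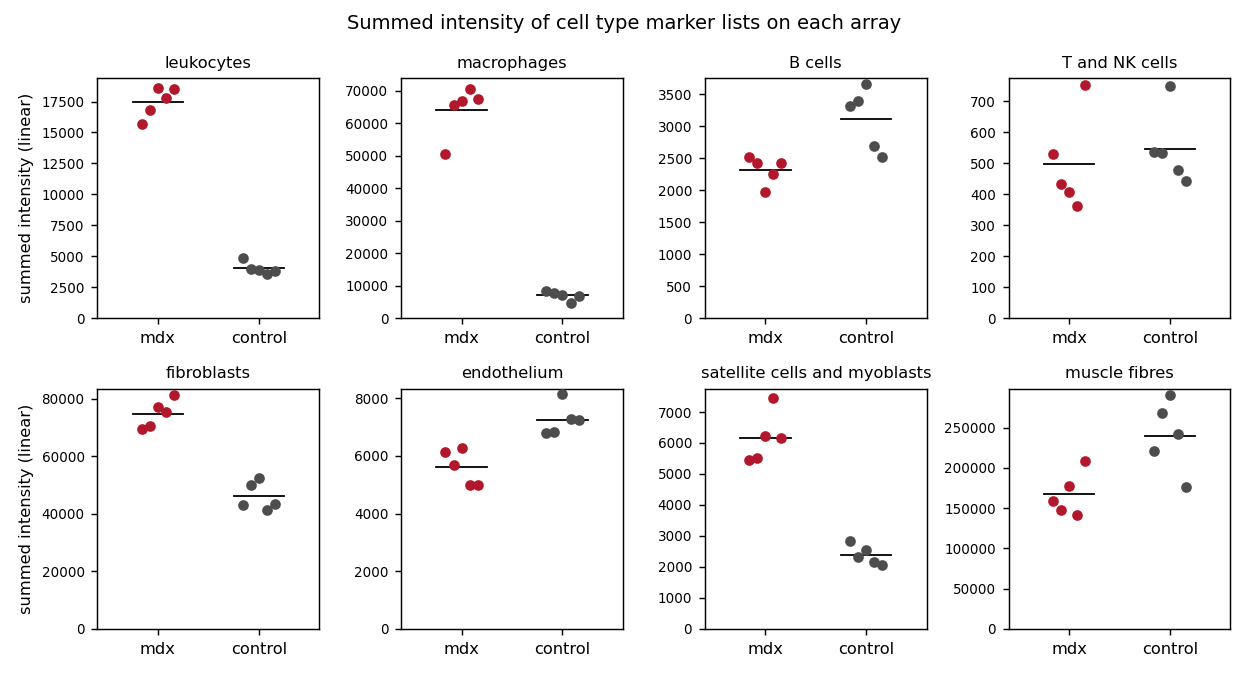
Summed intensity of 8 lists of cell type markers on each array, on a linear scale from 0, with mdx left of control. Points are arrays and bars are means. Leukocyte and macrophage sums in mdx lie above all control arrays, at 15674 to 18614 and 50650 to 70451, while B cell and T and NK cell sums touch or overlap control. Fibroblast sums and satellite cell and myoblast sums also lie above all control arrays. Endothelial sums lie below them, and muscle fibre sums overlap.

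Promoter sequence was set beside these values because the leukocyte pair and the widely expressed Cd82, Cd63 and Cd9 were all higher in mdx. RefSeq windows on GRCm38.p6, 300 bases long from 250 before to 50 after a start site, were found for all 10 genes, 15 windows in all. The letters GAGGAAGT, or ACTTCCTC on the other strand, are a form bound by PU.1, a transcription factor of myeloid and B cells. They occur in 3 of the 15 windows, belonging to Cd53, Cd37 and Cd82, and in 3.2% of all 32851 windows. Cd63 and Cd9, also higher in mdx, have no match. The windows that hold them follow, with 1 of Cd63 that does not, read 5′ to 3′ along the gene, with the match in capitals.
Cd53, chr3:106790100-106790399, minus strand: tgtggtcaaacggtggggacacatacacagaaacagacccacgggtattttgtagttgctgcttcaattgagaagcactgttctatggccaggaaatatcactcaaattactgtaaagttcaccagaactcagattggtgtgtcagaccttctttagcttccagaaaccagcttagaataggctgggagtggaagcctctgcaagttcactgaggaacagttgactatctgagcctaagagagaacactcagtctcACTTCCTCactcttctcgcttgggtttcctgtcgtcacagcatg
Cd37, chr7:45238790-45239089, minus strand: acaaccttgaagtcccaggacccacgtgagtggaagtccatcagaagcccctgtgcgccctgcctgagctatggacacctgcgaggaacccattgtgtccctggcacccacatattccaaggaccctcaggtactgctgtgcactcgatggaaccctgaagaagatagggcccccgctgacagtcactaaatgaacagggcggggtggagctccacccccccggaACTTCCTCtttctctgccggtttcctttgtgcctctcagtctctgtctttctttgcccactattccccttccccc
Cd82, chr2:93461802-93462101, minus strand: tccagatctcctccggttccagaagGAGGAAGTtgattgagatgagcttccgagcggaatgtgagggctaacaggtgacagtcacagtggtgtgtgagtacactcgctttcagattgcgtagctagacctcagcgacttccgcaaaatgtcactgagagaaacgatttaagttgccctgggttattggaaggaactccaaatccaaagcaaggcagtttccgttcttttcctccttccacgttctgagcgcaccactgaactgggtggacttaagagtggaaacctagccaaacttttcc
Cd63, chr10:128909095-128909394, plus strand: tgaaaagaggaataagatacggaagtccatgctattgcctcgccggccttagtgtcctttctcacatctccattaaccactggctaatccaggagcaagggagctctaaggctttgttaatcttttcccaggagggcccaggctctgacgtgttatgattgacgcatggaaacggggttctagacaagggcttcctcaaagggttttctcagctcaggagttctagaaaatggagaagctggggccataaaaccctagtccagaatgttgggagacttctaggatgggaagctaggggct
The match starts at position 7 of the Cd53 window counted from the start site, and at -25 for Cd37 and -225 for 1 of the 4 windows of Cd82. The GC box GGGCGG, or CCGCCC on the other strand, occurs in 8 of the 15 windows, Cd37 among them and Cd53 not, and in 35.7% of all windows. No PU.1 match overlaps a GC box in the 15 windows. The motifs were chosen after the sequences had been read. A match is a description of letters, and which start site muscle uses was not measured.

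Of the 6 widely expressed genes, Cd63, Cd82 and Cd9 rose, each by less than 2-fold on the fitted scale. Cd63, a late endosomal and exosomal protein, read 7427, 7452, 9190, 9636 and 8790 in mdx, against 4903, 4577, 4666, 5522 and 4937 in control. All mdx arrays were above all control arrays, and mdx replicates 1 and 2 were the lowest of the 5. Its log2 change was 0.76 (SE 0.091, adjusted p = 4.32e-05 by limma), a fold of 1.70.

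Genes of late endosomes and exosomes were mixed. Of 16 tested, 7 rose, 2 fell and 7 did not pass, where 15.9% of all genes tested were called higher and 18.4% lower. The median log2 change was 0.28, against -0.05 over all tested genes. The 7 that rose include the inhibitor Timp1, listed here although it is a ligand of human CD63. Timp1 was at 4531 ± 1148 in mdx and 974 ± 219 in control, a log2 change of 2.04. The lysosomal membrane protein Lamp2 rose by 0.71, and the exosome protein Pdcd6ip, or Alix, by 0.74, although its dimmer probe set did not pass, at 0.16. Sdcbp, or syntenin, an exosome adaptor tested through its mdx arrays alone, was at least 1.96-fold higher. Without Sdcbp, 15 were tested, 6 rose and 2 fell. The 2 that fell, chosen after their values were seen, were Chmp4b (-0.46) and Rab7 (-0.36), with another probe set of Rab7 at -0.01 that did not pass. Scaling to the hybridization controls called 12 of the 16 higher and 0 lower, with Chmp4b at 0.17 and Rab7 at 0.27.

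Cd9, an organizer of cell fusion and adhesion, read 5709, 5400, 6594, 5629 and 5377 in mdx, against 3430, 4377, 4174, 4012 and 4206 in control. The groups did not overlap, and mdx replicate 3 stood above the other mdx arrays. The log2 change was 0.49 (SE 0.085, adjusted p = 0.000767 by limma), and 0.44 without that array (adjusted p = 0.00205).

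Cd82, a metastasis suppressor that also marks human muscle stem cells, gave different calls with its probe sets. The probe set 99584_at read 1271, 1692, 1394, 1775 and 2055 in mdx, against 986, 951, 899, 832 and 836 in control. All mdx arrays were higher than all control arrays, with a wider spread in mdx, and the log2 change was 0.75 (SE 0.12, adjusted p = 0.000487 by limma). The dimmer 99585_at read 330, 625, 403, 591 and 843 in mdx, against 263, 575, 186, 586 and 326 in control. Those groups overlap, and the log2 change of 0.42 did not pass (95% interval -0.14 to 0.97, adjusted p = 0.238 by limma). The changes of these probe sets differed by 0.33 on the log2 scale, which an exact permutation test over the arrays did not separate (two-sided p = 0.238, and 0.952 adjusted over 4 pairs of probe sets of 1 gene). The third probe set, 161861_i_at, lay below noise on all 10 arrays, at -0.6 to 29.4 in mdx and -16.8 to 6.5 in control.

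Markers of fibroblasts and of satellite cells and myoblasts, which also make Cd9, Cd63 and Cd82, changed in part. Of 7 fibroblast markers 5 rose and 2 fell, with a sum of 69502 to 81300 in mdx and 41225 to 52307 in control. By comparison, 15.9% of all genes tested were called higher and 18.4% lower. The collagen chains Col3a1 and Col1a1 rose by 2.34 and 1.47, and the matrix proteins Lum and Mfap5 by 1.75 and 1.14. Other probe sets of Col1a1 and Mfap5 did not pass, at 0.39 and 0.32. Dcn (-0.35) and Pdgfra (-0.36) fell, but Dcn turned to 0.14 after quantile normalization and both turned positive, at 0.29 and 0.12, under scaling to the hybridization controls. Pdgfra did not pass under that scaling, or with equal trimmed means, at -0.34. Another probe set of Pdgfra went the other way but was not tested, with 4 arrays above the filter. It read 1043, 1157, 979, 899 and -14.2 in mdx, against -1127 to -534 in control, with no overlap. Control values this far below 0 cannot show whether the transcript was present, so the direction of Pdgfra was not settled. Of 5 satellite cell and myoblast markers tested, 3 rose, Myog by 1.83, Myod1 by 0.94 and Vcam1 by at least 2.42-fold, the last tested through its mdx arrays alone. Without Vcam1, 4 were tested, 2 rose and 0 fell. The satellite cell and myoblast list summed to 5438 to 7468 in mdx and 2053 to 2841 in control. Met was below noise on every array. Of 2 nerve and Schwann cell markers tested, the myelin gene Mbp was called lower at -0.90, but its dimmer probe set was called higher at 0.60. Mbp did not pass under scaling to the hybridization controls, at -0.40, or to equal trimmed means, at -0.87. The nerve list summed to 3001 to 3963 in mdx and 2847 to 5472 in control, with Nefl and Nefm below noise on every array. The part of each cell type in these changes was not tested.

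**Figure D3:**
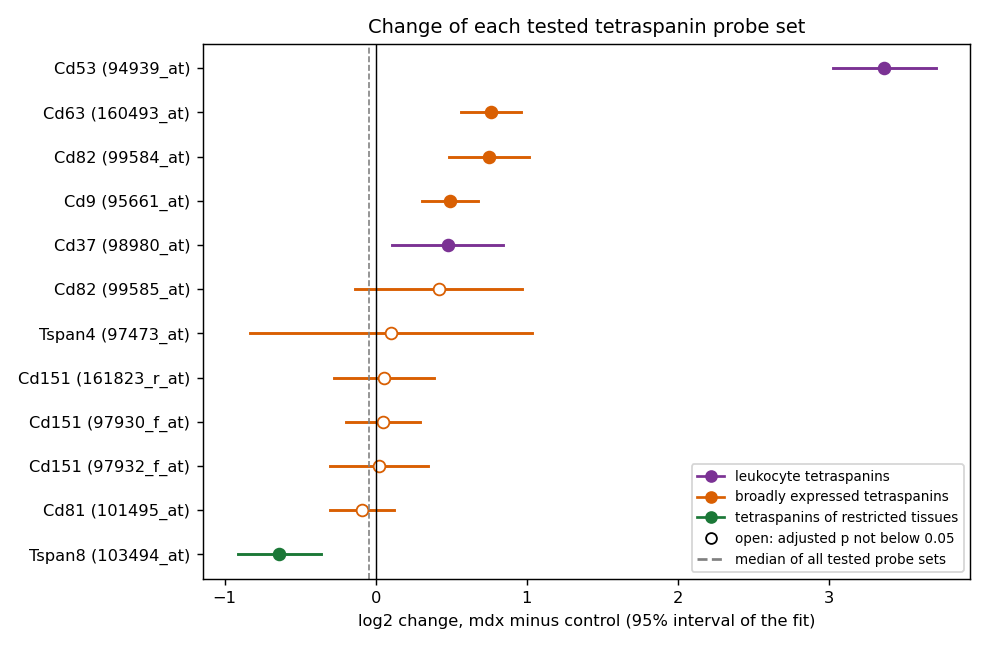
Log2 change of mdx minus control for the 12 tested tetraspanin probe sets, with the 95% interval of the fit. Filled points passed at an adjusted p below 0.05, colours give the expression class, and the dashed line is the median of all tested probe sets, -0.05. Cd53 lies apart at 3.37, and the interval of every Cd151 probe set spans 0.

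Cd81, Cd151 and Tspan4 did not pass. Cd81, which acts with Cd9 in myoblast fusion, read 2585, 2671, 3060, 2707 and 2497 in mdx, against 2760, 3511, 2724, 2474 and 3055 in control. The groups overlap throughout, with a log2 change of -0.09 (95% interval -0.30 to 0.12, adjusted p = 0.514 by limma). With the deposited scaling the interval leaves out a rise as large as that fitted for Cd9. The sign of Cd81 turned to 0.51 (adjusted p = 0.0183) under scaling to the hybridization controls, which moved the median of all probe sets to 0.45.

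Cd151, a partner of the laminin-binding integrins, had 3 tested probe sets with changes of 0.05, 0.05 and 0.02 on the log2 scale, in the order 161823_r_at, 97930_f_at and 97932_f_at. The brightest, 97932_f_at, read 7318, 8124, 7771, 7603 and 9003 in mdx, against 6174, 6657, 10924, 9663 and 6760 in control. The mean was 7964 ± 650 in mdx and 8036 ± 2121 in control, and the groups overlap. The probe set 97930_f_at averaged 5059 ± 498 in mdx and 4918 ± 826 in control, and 161823_r_at 1492 ± 306 in mdx and 1434 ± 289 in control. The widest of the 3 intervals ran from -0.28 to 0.39. Probe sets with the suffix f can bind related sequences as well, so their signal may not be that of Cd151 alone. The fourth probe set, 97931_i_at, was below 0 on all arrays, at -110 to -12.3 in mdx and -145 to -53.2 in control.

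Tspan4, best known from vesicles that migrating cells leave behind, was dim and variable. It read 468, 457, 159, 103 and 700 in mdx, against 308, 511, -87.8, 503 and 438 in control. In each group 4 of 5 arrays were above noise, and the interval of its log2 change, -0.84 to 1.03, reaches past a 2-fold rise.

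Tspan8, a tetraspanin of epithelia and of several tumours, was the member that fell. It read 1040, 936, 1081, 960 and 823 in mdx, against 1873, 1598, 1144, 1797 and 1643 in control. All mdx arrays were below all control arrays, although control replicate 3 came close to the highest mdx array. The log2 change was -0.64 (SE 0.13, adjusted p = 0.00186 by limma), a fold of 0.642. Under scaling to the hybridization controls it stood at -0.08 (adjusted p = 0.737), which is -0.52 relative to the median probe set, against -0.59 with the deposited scaling.

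Most markers of muscle fibres and some of endothelium fell with the deposited scaling, where 18.4% of all genes tested fell. Of 7 fibre markers, 5 fell and 0 rose, with Ckm at -0.56, Tnnt3 at -0.53, Pvalb at -0.46 and Myh1 at -0.42. Of 8 endothelial markers, 2 fell, 0 rose and 6 did not pass, with Flt1 at -0.74 and Vwf at -0.75 the ones that fell, and the list summed to 4979 to 6290 in mdx and 6793 to 8155 in control. Quantile normalization called 1 fibre marker lower and left Myh1 at 0.07, and scaling to the hybridization controls called 0 of the 7 fibre markers and, of the endothelial markers, 1 higher and 0 lower. Tspan8 stood at -0.66 after quantile normalization (adjusted p = 0.00247 by limma). The part of these cell types in the fall of Tspan8 was not tested.

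**Figure D4:**
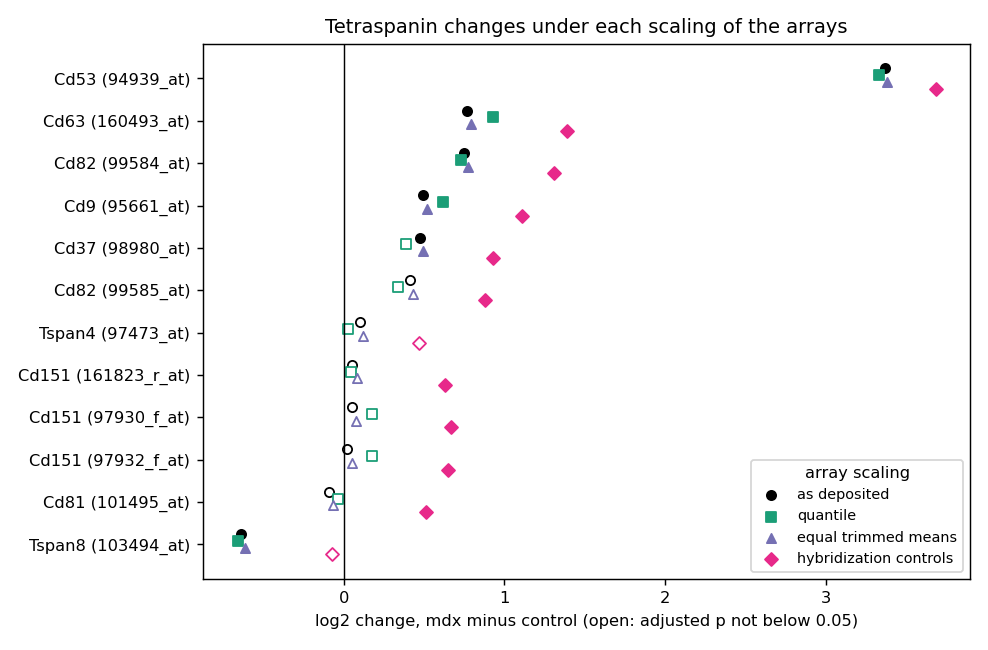
Log2 change of mdx minus control for the 12 tested tetraspanin probe sets under 4 scalings of the arrays. Filled symbols passed at an adjusted p below 0.05. Scaling to the hybridization controls moved all probe sets upward, Cd81 to 0.51 and Tspan8 to -0.08, while Cd53, Cd63, Cd9 and 99584_at of Cd82 passed under all 4.

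The hybridization controls, bacterial and phage transcripts added to each sample at set amounts, had geometric means of 5936 to 7940 in mdx and 9762 to 12868 in control. Relative to the median probe set under that scaling, Cd53 stood at 3.24, Cd63 at 0.94, 99584_at of Cd82 at 0.86, Cd9 at 0.66, Cd37 at 0.48 and Cd81 at 0.07.

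Few other genes of the family could be tested. Of 21 further tetraspanins listed, 11 had a probe set, 6 were tested, and 1 rose, 0 fell and 5 did not pass, with a median log2 change of 0.26. Scaling to the hybridization controls called 4 higher and 0 lower. For comparison, 34.3% of all tested genes were called in either direction. The one that rose was Tspan32, a tetraspanin of blood-forming cells, which read 310.7, 393, 326, 306 and 268 in mdx, against 81.4, 98.3, 119.5, 186 and 148 in control. All mdx arrays lay above all control arrays, 4 of which were below noise, with a log2 change of 0.76 (SE 0.14, adjusted p = 0.00149 by limma). Tspan13 (0.48, adjusted p = 0.0744) and Tspan9 (0.32, adjusted p = 0.0967) did not pass in the same fit. Tspan3, Tspan5, Prph2 and Rom1 were below noise on every array.

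Partners that tetraspanins bind changed in part. Of 31 listed, 22 were tested, 7 rose, 2 fell and 13 did not pass, where 15.9% of all genes were called higher and 18.4% lower. The median log2 change of the 22 was 0.16, against -0.05 over all tested genes. Without Icam1 and Vcam1, 20 were tested, 5 rose and 2 fell. Other probe sets of Vcam1 were too dim to be tested. Scaling to the hybridization controls called 14 of the 22 higher and 1 lower. The 4 with the smallest adjusted p were leukocyte integrin chain Itgb2 (1.87), the interferon-induced Ifitm3 (1.20), the adhesion receptor Vcam1, at least 2.42-fold higher, and its relative Icam1, at least 1.48-fold higher, both tested through their mdx arrays alone. The 2 that fell were Cd4 (-1.46) and the fatty acid receptor Cd36 (-0.58), named after their values were seen, as are the next genes. Cd4 read -196 to 177 in mdx, with 1 of 5 arrays above noise, and 220 to 1056 in control. The size of its fitted change therefore rests on mdx values mostly below noise. The groups overlap for Cd36, which did not pass under scaling to the hybridization controls (-0.11, adjusted p = 0.656 by limma). Cd4 kept its call under that scaling, at -1.16. Igsf8, a direct partner of Cd9 and Cd81, was at 1769 ± 262 in mdx and 1665 ± 222 in control and did not pass (0.08, adjusted p = 0.655 by limma). Another, Ptgfrn, near the noise level, did not pass either (-0.21, 95% interval -0.91 to 0.50). Itga7, the laminin-binding integrin chain of muscle, was at 1240 ± 185 in mdx and 725 ± 99.9 in control (0.66, adjusted p = 0.00108 by limma), while its next probe set did not pass, at 0.12.

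The genes with profiles most like a member were found by Pearson's r over the 10 arrays. Because the arrays fall into 2 groups, r mostly follows the difference between them and is given as a description. For Cd53 they were Cnn3 (r = 0.995), Igf2 (r = 0.995) and Col6a3 (r = 0.994), which stand outside the leukocyte lists. For Cd63 they were Pqlc3 (r = 0.991), Prss23 (r = 0.988) and Bzw1 (r = 0.986). For Cd9 they were Sap30 (r = 0.956), B2m (r = 0.953) and Smc4 (r = 0.952). Cd81 had weaker matches in Gsg1 (r = 0.894), Psmg1 (r = 0.873) and Skp1 (r = 0.825), none of which passed the test.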

How the data were processed

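The authors deposited linear probe set intensities. How they were summarised, background-corrected and scaled is not given in the sources used here. Trimmed means, tested on the values, were 723 on mdx replicate 1 and 800.7 to 800.9 on all other arrays. They lay within 8.82% of their average, so the deposited scaling was kept. Negative values were set to 0, 157 was added (a noise SD taken from the median size of the 27483 negative values), and log2 taken. Probe sets above 134, the 40th percentile, on at least 5 of 10 arrays were tested, 7612 of 12422. The test of mdx against control was limma's (version 3.58.1, R 4.3.3), two-sided, with a variance trend, and p-values were adjusted by Benjamini and Hochberg's method over all 7612. A fold is given as at least the mdx geometric mean over the noise level where all control arrays lay below it.

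Genes were named through the platform annotation, and 66 control probe sets were left out. A gene of a list is represented by its brightest tested probe set. Named genes are all probe sets of the members, up to 4 called genes per list with the smallest adjusted p, and the 3 closest profiles for Cd53, Cd63, Cd81 and Cd9. Members and lists were chosen with earlier results of these data known. The fit was tested on simulated data. Promoters are from RefSeq, GRCm38.p6. The 21 alternatives changed the pseudocount, the treatment of values below 0, scaling, filter, variance model, test, block and arrays.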

Additional observations from a re-analysis of the deposited data

Results flagged for a closer look

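Of 88 groups of 5 arrays checked, 28 of them of the tetraspanins, 3 held an array whose gap to the next was above Dixon's 95% critical value, and chance gives about 1 in 20. Cd9 on mdx replicate 3 read 6594, against 5377 to 5709 on the other mdx arrays, and the Cd9 call did not depend on that array. The probe set 97931_i_at of Cd151 read -53.2 on control replicate 4, against -145 to -121 on the other control arrays, all below noise. The myoblast gene Myod1 read 1551 on control replicate 1, against 1287 to 1362 on the other control arrays.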

How the results depend on the processing

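Cd53, Cd63, Cd9 and 99584_at of Cd82 kept their direction and call in all 21 alternatives, with log2 changes of 2.62 to 4.66, 0.72 to 1.39, 0.44 to 1.11 and 0.67 to 1.31. Scaling to the hybridization controls changed the most. It gave 3507 probe sets higher and 124 lower over the whole array, against 1191 and 1329, and called 10 tetraspanin probe sets, 10 higher and 0 lower, against 6, 5 and 1. Under it Cd81 turned to 0.51, the 3 tested probe sets of Cd151 and 99585_at of Cd82 were called higher, and Tspan8 lost its call. The cause was not tested. Cd37 lost its call in 11 alternatives, with 0.38 to 0.93 over all of them. Leaving out 1 array at a time gave 2241 to 2461 calls over the whole array and 5 to 6 tetraspanin calls, Cd37 being the one lost. The arrays of both groups carry numbers 1 to 5, but same-numbered arrays did not deviate together (r from -0.134 to 0.052), and with the replicate block 2212 probe sets and 5 tetraspanin probe sets were called, Cd37 again lost (adjusted p = 0.0951). The exact permutation test per probe set, whose smallest p is 0.00794, called 1909 and 5. Probe sets below noise, such as 1 of Cd82 and 1 of Cd151, are limited by signal over background. A value below noise does not show that a transcript was absent. Tspan4 could not be tested under the stricter filter.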
